A study of Mus musculus with 8 samples.

Results

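Transcripts of 9 complement genes were followed in mouse soleus, a calf muscle rich in slow fibres: C1qa, C1qb, C1qc, C1s1, C2, C3, C4b, C3ar1 and C5ar1. They were chosen by symbol, with earlier results of these data known, and make up 9 of the 22880 gene rows. All 9 passed the filter on low counts that left 14001 genes for testing. RNA was sequenced from 4 control mice (Dnm2 +/+) and 4 Dnm2 +/K562E mice, all male, 2 months old and of C57BL/6 background, with 1 soleus library per mouse and between 33407430 and 48832814 counted reads per library. Dnm2 encodes dynamin 2, a GTPase that pinches off vesicles from membranes. The Dnm2 +/K562E mice carry 1 mutant copy from the germline on, in every cell type, together with a loxP site left in an intron by the targeting, and the controls carry neither. The soleus was taken whole, so that RNA of fibres, connective tissue, vessels, fat and immune cells was measured together.

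Levels are given as normalized CPM, the usual depth-scaled read counts (CPM) with library sizes corrected by TMM factors. A gene was called higher or lower in Dnm2 +/K562E mice at a Benjamini-Hochberg adjusted p under 0.05 in edgeR's quasi-likelihood F-test over all 14001 genes, provided that its log2 fold change was also 0.58 or more in size. Slow fibre genes checked the tissue label. Myh7, the slow myosin heavy chain, had a mean of 6014 ± 263 normalized CPM in controls and 4193 ± 391 in Dnm2 +/K562E mice (SD, n = 4 each, as for every mean given). Dnm2 itself stood at 68.8, 68.5, 59.2 and 68.7 normalized CPM in controls 1 to 4 and at 74.2, 76.1, 73.2 and 70.3 in Dnm2 +/K562E mice 1 to 4 (log2 fold change 0.15, SE 0.07, adjusted p = 0.0909). Control 4 stood apart from the other controls in several of the cell type markers described further on, so the fold change without that mouse is given beside each of the 9 genes.

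Complement is a cascade of plasma and tissue proteins that tags particles and cells for removal. In the classical pathway C1q, built from the chains of C1qa, C1qb and C1qc, binds its target and switches on the proteases C1r and C1s, which cut C4 and C2 to form an enzyme that cleaves C3. Fragments of C3 and C4 attach to surfaces, and the small fragments C3a and C5a act on receptors of immune cells. The liver makes most complement proteins of the plasma, whereas C1q is made mainly by macrophages and related cells, and factor D (adipsin) is made in large amounts by fat cells.

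The files list the genes by Ensembl identifier: ENSMUSG00000036887 for C1qa, ENSMUSG00000036905 for C1qb, ENSMUSG00000036896 for C1qc, ENSMUSG00000038521 for C1s1, ENSMUSG00000024371 for C2, ENSMUSG00000024164 for C3, ENSMUSG00000073418 for C4b, ENSMUSG00000040552 for C3ar1 and ENSMUSG00000049130 for C5ar1. The 9 genes lie on 4 chromosomes of the mouse genome (GRCm38), all on the minus strand. The C1q genes form a cluster at chr4:136880129-136886187 (C1qb), chr4:136889804-136893065 (C1qc) and chr4:136895917-136898803 (C1qa). C1s1 (chr6:124530345-124542359) and C3ar1 (chr6:122847138-122856161) share chromosome 6. C4b (chr17:34728380-34743882), C2 (chr17:34862604-34898265) and C3 (chr17:57203970-57228136) share chromosome 17, and C5ar1 lies at chr7:16246743-16259540. RefSeq promoter sequences (GRCm38.p6) were at hand for 6 of the 9 genes: C1qb, C1qc, C1s1, C3, C3ar1 and C5ar1. They are printed for C1qb and C1qc, neighbours in the cluster that were called together, for C5ar1, a called receptor, and for C3, which was not called. Each run is the 250 bases before the start site, read 5′ to 3′ on the minus strand, with motif matches in capitals, from chr4:136886201-136886450 (C1qb), chr4:136892915-136893164 (C1qc), chr7:16259339-16259588 (C5ar1) and chr17:57228137-57228386 (C3).
C1qb: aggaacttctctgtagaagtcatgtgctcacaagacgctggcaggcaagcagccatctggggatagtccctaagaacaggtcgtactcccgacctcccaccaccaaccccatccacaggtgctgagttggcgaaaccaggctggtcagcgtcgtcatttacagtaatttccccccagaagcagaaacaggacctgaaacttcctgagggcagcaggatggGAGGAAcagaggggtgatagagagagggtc
C1qc: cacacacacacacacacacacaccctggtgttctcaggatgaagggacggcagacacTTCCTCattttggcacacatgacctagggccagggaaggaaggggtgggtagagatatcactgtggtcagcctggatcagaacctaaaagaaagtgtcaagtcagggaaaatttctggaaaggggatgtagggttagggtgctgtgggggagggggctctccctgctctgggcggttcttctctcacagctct
C5ar1: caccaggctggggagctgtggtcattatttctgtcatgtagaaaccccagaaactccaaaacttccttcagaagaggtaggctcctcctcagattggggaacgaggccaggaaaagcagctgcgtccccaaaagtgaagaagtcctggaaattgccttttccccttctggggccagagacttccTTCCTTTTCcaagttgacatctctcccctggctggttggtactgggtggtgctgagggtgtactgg
C3: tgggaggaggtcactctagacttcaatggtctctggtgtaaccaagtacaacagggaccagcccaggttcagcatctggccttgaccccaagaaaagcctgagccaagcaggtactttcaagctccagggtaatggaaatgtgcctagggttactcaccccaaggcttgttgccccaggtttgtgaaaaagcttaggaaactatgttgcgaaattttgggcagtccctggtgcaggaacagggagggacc

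The windows of 300 bases, from 250 before to 50 after the start site, were searched on both strands for 4 motifs. GAGGAA, the core bound by the myeloid factor PU.1, was found once in C1qb, from base -30, and once in C1qc, on the opposite strand (TTCCTC), from base -193. It occurs in 28.3% of all 32817 promoters of this length. GAAANNGAA, an interferon-type element, was found once in C5ar1, on the opposite strand (TTCCTTTTC), from base -66, and occurs in 8.55% of promoters. TTCNNNGAA, a STAT-type element present in 8.29% of promoters, and GGANTTTCC, an NF-kappaB-type element present in 1.26%, were found in none of the windows of the 6 genes. None of the 4 motifs was found in the windows of C1s1, C3 and C3ar1. GAAANNGAA and GAGGAA can overlap in a sequence, but did not do so here. These are matches of letters, and binding was not measured.

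Of the 9 genes, 5 were called higher in Dnm2 +/K562E mice: the chains of C1q (C1qa, C1qb and C1qc) and the receptors of C3a and C5a (C3ar1 and C5ar1). Among all 14001 genes 12.9% were called higher. C1s1 had an adjusted p below the threshold and a fold change just short of the other one. C2, C3 and C4b were not called. No gene of the 9 was called lower by edgeR's quasi-likelihood test, against 7.85% of all genes, and the exact test of edgeR and DESeq2 called 0 lower as well, while 1 of the 9, C3, was lower at an unadjusted p under 0.05. Over all 14001 genes, 3103 were higher and 3036 lower at an adjusted p under 0.05 alone. An unadjusted p passes at least as many. The median log2 fold change of the 9 genes was 0.86, beside 0.0074 over all genes tested. Since the 9 genes were chosen with earlier results of these data known, their contrast with all genes is a description and not an independent test. All 4 Dnm2 +/K562E mice lay above all 4 controls for 3 of the 9 genes (C1qa, C1qb and C1s1), as for 20.6% of all genes, and lay below all controls for 0 of the 9, as for 20.5% of all genes. Without control 4, 6 of the 9 were called higher, with C1s1 added, and 0 lower. Other mice left out gave lower counts as well. Without control 2, control 3, Dnm2 +/K562E mouse 1 or Dnm2 +/K562E mouse 2, 4 of the 9 were called higher, with C5ar1 lost. Without control 1 or control 3, C3 was called lower.

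**Figure D1:**
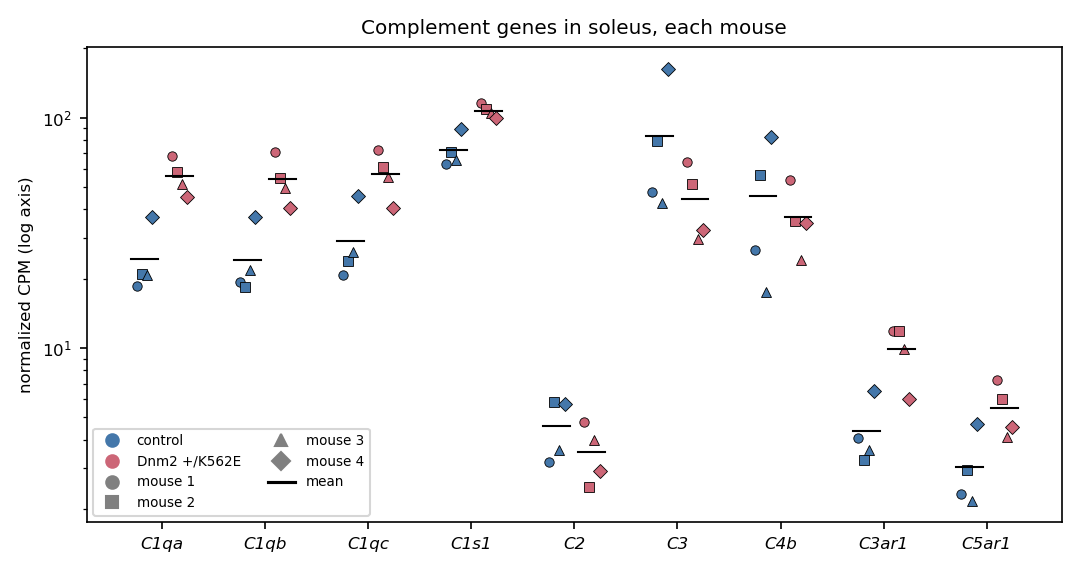
Normalized CPM (log axis) of the 9 complement genes in each of 4 control (blue) and 4 Dnm2 +/K562E mice (red), with the mouse number as marker shape and the mean as a black line. The C1q genes lie between 18.4 and 45.6 in controls and between 40.3 and 72.2 in Dnm2 +/K562E mice, whereas C3 and C4b overlap widely and control 4 is the highest mouse for both.

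C1qa was measured at 18.6, 20.8, 20.8 and 36.9 normalized CPM in controls 1 to 4 and at 68.2, 57.8, 51.6 and 45.1 in Dnm2 +/K562E mice 1 to 4. The groups did not overlap, and control 4 was the highest control. The means were 24.3 ± 8.44 and 55.7 ± 9.82 (SD, n = 4 each), a log2 fold change of 1.20 (SE 0.20, adjusted p = 8.06e-04). C1qb, the second chain, gave 19.2, 18.4, 21.7 and 37.1 in controls and 70.9, 54.8, 49.3 and 40.3 in Dnm2 +/K562E mice. Here too every Dnm2 +/K562E mouse lay above every control, with mouse 4 the closest to control 4. The means were 24.1 ± 8.75 and 53.8 ± 12.9, and the log2 fold change was 1.16 (SE 0.23, adjusted p = 0.00197). C1qc, the third chain, gave 20.8, 23.7, 26.0 and 45.6 in controls and 72.2, 60.7, 55.0 and 40.5 in Dnm2 +/K562E mice. For this chain the groups overlapped, since control 4 was above Dnm2 +/K562E mouse 4. The means were 29.0 ± 11.2 and 57.1 ± 13.2, and the log2 fold change was 0.98 (SE 0.24, adjusted p = 0.00678). Without control 4 the log2 fold changes of C1qa, C1qb and C1qc were 1.46, 1.43 and 1.27, and all 3 genes were called whichever mouse was left out.

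The chains of C1q are assembled in equal numbers, and their shares of the reads were examined in each mouse. These shares were not corrected for exon length, which is 1931 bases for C1qc, 1040 for C1qa and 1088 for C1qb. They are therefore not proportions of transcripts. Per kb of exon, C1qc had the lowest control mean (15.02 normalized CPM, against 23.4 for C1qa and 22.2 for C1qb). The means in Dnm2 +/K562E mice were 29.6 for C1qc, 53.5 for C1qa and 49.5 for C1qb. C1qa made up 30.4% to 35.8% of the summed reads of the 3 genes, C1qb 29.3% to 33.6% and C1qc 32.2% to 38.1%. The shares of reads thus moved by a few percentage points across the 8 mice, while the summed level ran from 58.7 normalized CPM in control 1 to 211.3 in Dnm2 +/K562E mouse 1. The mean share of C1qc was 37.3% in controls and 34.2% in Dnm2 +/K562E mice. Every Dnm2 +/K562E mouse lay below every control for this share, by a small margin (at most 35.3% against at least 35.4%). The shares of C1qa and C1qb overlapped between the groups, and the 3 shares depend on one another. In level, 20.5% of all genes tested had all Dnm2 +/K562E mice below all controls. No 31-base stretch of the transcripts of C1qa, C1qb or C1qc occurs in transcripts of another gene, so their reads could be assigned to each chain.

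C1s1 encodes C1s, the protease that C1q sets to work on C4 and C2. It was measured at 62.8, 70.5, 65.7 and 89.0 normalized CPM in controls and at 115.3, 109.0, 105.0 and 99.2 in Dnm2 +/K562E mice. The groups did not overlap, and control 4 was again the highest control. The means were 72.0 ± 11.8 and 107.1 ± 6.81 (SD, n = 4 each), a log2 fold change of 0.57 (SE 0.10, 95% interval 0.35 to 0.80, adjusted p = 0.00114). The adjusted p passed and the size of the change fell just below 0.58. The gene was called under 7 of 17 alternative settings, among them without control 4 (0.68), without Dnm2 +/K562E mouse 3 (0.58) and without Dnm2 +/K562E mouse 4 (0.61). Of the 31-base stretches of its transcripts, 47.6% occur in other genes, 33.5% in its near copy C1s2, which was measured at 0.877 ± 0.202 normalized CPM in controls and 1.21 ± 0.314 in Dnm2 +/K562E mice.

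C2, the protease subunit of the classical C3 convertase, was low, at 3.19, 5.85, 3.61 and 5.71 normalized CPM in controls and at 4.75, 2.49, 4.01 and 2.92 in Dnm2 +/K562E mice. The groups overlapped. The means were 4.59 ± 1.39 and 3.54 ± 1.03, and the log2 fold change of -0.37 (SE 0.26, 95% interval -0.94 to 0.19, adjusted p = 0.266) did not pass. Without control 4 it was -0.26. The gene model Gm20547 covers 42.8% of the exon bases of C2 on the same strand, and 79.5% of those of the neighbouring Cfb. Reads in these stretches were counted for each of the overlapping genes. Gm20547 stood at 15.2 ± 6.54 normalized CPM in controls and 11.4 ± 2.92 in Dnm2 +/K562E mice.

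C3 and C4b encode the related proteins that bind covalently to surfaces through a thioester bond. C3 was measured at 47.6, 78.7, 42.6 and 163.0 normalized CPM in controls and at 64.3, 51.5, 29.8 and 32.4 in Dnm2 +/K562E mice. Control 4 was far above all other mice, and the remaining controls overlapped with the Dnm2 +/K562E mice. The means were 83.0 ± 55.7 and 44.5 ± 16.4, with a log2 fold change of -0.90 (SE 0.40, 95% interval -1.78 to -0.02, adjusted p = 0.0912), which did not pass. The value was -0.35 (adjusted p = 0.348) without control 4. Without control 1 (-1.09, adjusted p = 0.0358) or without control 3 (-1.12, adjusted p = 0.0425), C3 was called lower. C4b gave 26.7, 56.2, 17.5 and 81.9 in controls and 53.8, 35.7, 24.2 and 34.7 in Dnm2 +/K562E mice. The controls alone spanned the whole range, from control 3 as the lowest of the 8 mice to control 4 as the highest. The means were 45.6 ± 29.3 and 37.1 ± 12.3, with a log2 fold change of -0.30 (SE 0.41, 95% interval -1.20 to 0.61, adjusted p = 0.588). Without control 4 the log2 fold change was 0.14, of opposite sign. C4b shares 48.3% of its 31-base stretches with C4a, for which no row was analysed here, whereas C3 shares none with another gene.

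The receptors were less abundant. C3ar1, the receptor of C3a, was measured at 4.05, 3.27, 3.61 and 6.51 normalized CPM in controls and at 11.8, 11.8, 9.92 and 6.00 in Dnm2 +/K562E mice. Dnm2 +/K562E mouse 4 lay below control 4, and the other 3 Dnm2 +/K562E mice lay above all controls. The means were 4.36 ± 1.47 and 9.89 ± 2.74, a log2 fold change of 1.19 (SE 0.25, adjusted p = 0.00327), or 1.43 without control 4, and the gene was called whichever mouse was left out. C5ar1, the receptor of C5a, gave 2.32, 2.97, 2.17 and 4.68 in controls and 7.25, 6.02, 4.10 and 4.54 in Dnm2 +/K562E mice. Control 4 overlapped with Dnm2 +/K562E mice 3 and 4. The means were 3.04 ± 1.15 and 5.48 ± 1.44, a log2 fold change of 0.86 (SE 0.26, adjusted p = 0.0223). This call was lost without control 2 (adjusted p = 0.0507), control 3 (0.0610), Dnm2 +/K562E mouse 1 (0.0737) or Dnm2 +/K562E mouse 2 (0.0543), with log2 fold changes of 0.84, 0.72, 0.69 and 0.81, while it stood at 1.13 without control 4. C5ar2, the second C5a receptor, stood at 0.533 ± 0.155 and 0.759 ± 0.117 (log2 fold change 0.50, adjusted p = 0.203).

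Levels were compared between genes after division by exon length, as normalized CPM per kb of exon. In controls C1qa (23.4 ± 8.12), C1s1 (23.0 ± 3.76) and C1qb (22.2 ± 8.04) were highest, followed by C3 (16.1 ± 10.8), C1qc (15.02 ± 5.82) and C4b (8.004 ± 5.15), and neighbours in this order lay within their spread except C1qc and C4b, whose means differed by more than either SD. C2 (1.19 ± 0.359), C5ar1 (1.18 ± 0.447) and C3ar1 (1.01 ± 0.341) formed a low group. In Dnm2 +/K562E mice C1qa (53.5 ± 9.44) and C1qb (49.5 ± 11.8) were highest, then C1s1 (34.2 ± 2.18) and C1qc (29.6 ± 6.81), where the mean of C1s1 lay within the spread of C1qc. C3 (8.65 ± 3.18) and C4b (6.51 ± 2.16) came next and overlapped, and C3ar1 (2.30 ± 0.636), C5ar1 (2.13 ± 0.560) and C2 (0.915 ± 0.266) were lowest. The places of C1s1, C4b and C2 are less certain. C1s1 and C4b may lose reads in the 47.6% and 48.3% of their 31-base stretches that occur in other genes. C2 also counts reads of Gm20547 over 42.8% of its exon bases. The ratio of C1qa to C3 in normalized CPM, chosen after the values were seen, was 0.226 to 0.488 in controls and 1.06 to 1.73 in Dnm2 +/K562E mice.

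**Figure D2:**
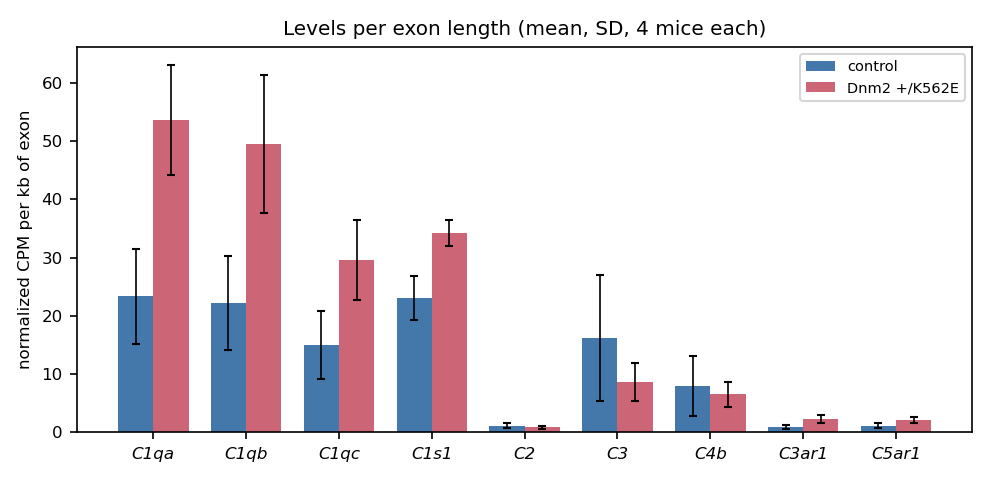
Mean normalized CPM per kb of exon of the 9 genes in 4 control (blue) and 4 Dnm2 +/K562E mice (red), with bars from 0 and error bars of 1 SD. C1qa and C1qb reach 53.5 and 49.5 in Dnm2 +/K562E mice, whereas C2, C3ar1 and C5ar1 stay below 3 in both groups.

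The rest of the complement system was examined with a list of 47 further genes, also chosen with earlier results of these data known. Among them, 46 had a counted row and 28 passed the filter. Of these 28, 6 were called higher, 2 lower and 20 neither, where 12.9% of all genes tested were called higher and 7.85% lower. Their median log2 fold change was 0.10, beside 0.0074 over all genes. The genes called higher were C1rl, Serping1, Itgam, Itgax, Itgb2 and Vsig4, and those called lower were Clu and Vtn. Without control 4, 8 were called higher, with C1ra and Cfp added, and 2 lower. Without control 1 or without Dnm2 +/K562E mouse 1, 5 were called higher and 2 lower. In the classical pathway C1ra, the protease partner of C1s, stood at 21.1 ± 6.55 normalized CPM in controls and 31.4 ± 2.71 in Dnm2 +/K562E mice. Its log2 fold change, 0.577 (adjusted p = 0.0191), fell just short of the threshold, and it was called without control 4 (0.81), without Dnm2 +/K562E mouse 2 (0.60) or without Dnm2 +/K562E mouse 4 (0.62). C1ra shares 59.6% of its stretches with other genes, chiefly its near copy C1rb (0.557 ± 0.0257 and 0.593 ± 0.295). C1rl, a C1r-like protease, was low and rose from 1.21 ± 0.292 to 2.46 ± 0.616 (log2 fold change 1.03, adjusted p = 0.00692).

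Among soluble regulators both directions occurred. Serping1, the inhibitor of C1r and C1s, rose from 149.7 ± 39.1 to 234.4 ± 24.3 (log2 fold change 0.65, adjusted p = 0.00539) and lost its call without control 1 (0.55) or without Dnm2 +/K562E mouse 1 (0.575). Clu, or clusterin, which keeps the terminal complex from inserting into membranes, gave 59.7, 71.4, 69.2 and 83.8 in controls and 36.3, 34.8, 31.3 and 32.4 in Dnm2 +/K562E mice. All Dnm2 +/K562E mice lay well below all controls, with a log2 fold change of -1.07 (SE 0.10, adjusted p = 1.26e-05). Vtn, or vitronectin, another inhibitor of the terminal complex, fell from 47.0 ± 4.86 to 23.4 ± 2.71, a log2 fold change of -1.01 (adjusted p = 2.12e-05), also without overlap.

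Of the receptors of C3 fragments, Itgam, Itgax, Itgb2 and Vsig4 were called higher, and Cr2, complement receptor 2, was below the filter. Itgam and Itgax encode the alpha chains of complement receptors 3 and 4, and Itgb2 their shared beta chain. Itgax was measured at 1.04, 0.713, 0.493 and 0.972 normalized CPM in controls and at 6.65, 6.35, 3.94 and 3.97 in Dnm2 +/K562E mice. The groups were far apart, with a log2 fold change of 2.71 (SE 0.28, adjusted p = 2.90e-05). Itgam (7.13 ± 2.75 and 18.8 ± 5.36) and Itgb2 (5.03 ± 2.33 and 15.5 ± 4.58) had log2 fold changes of 1.40 (adjusted p = 0.0013) and 1.63 (adjusted p = 0.00102). Vsig4, a receptor of C3b on resident macrophages, rose from 0.672 ± 0.289 to 2.55 ± 0.732 (1.90, adjusted p = 0.00114). Cd93, at first described as a receptor of C1q, stood at 140.3 ± 8.39 and 113.0 ± 14.2. Its log2 fold change, -0.31 (adjusted p = 0.0146), was short of the fold threshold. For Itgam 68.3% of 31-base stretches recur in other gene models, chiefly Gm49368 (67.2%), so its level is less certain.

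The lectin, alternative and terminal pathways and the membrane regulators held 15 tested genes. The quasi-likelihood test called none of them, and the exact test of edgeR and DESeq2 each called 1, Cd59b, lower. At an unadjusted p under 0.05, 2 of the 15, Cd59b and Cr1l, were lower. Of all 14001 genes, 3036 were lower even at an adjusted p under 0.05 alone. Cfd, or adipsin, the protease that activates factor B, was measured at 118.6, 217.2, 58.8 and 306.1 normalized CPM in controls and at 168.1, 160.3, 99.0 and 139.7 in Dnm2 +/K562E mice. The controls alone spanned the range from the lowest to the highest mouse, and the log2 fold change was -0.30 (SE 0.39, adjusted p = 0.560). The log2 fold change of Cfb, the factor B that it cleaves, was -0.44 (adjusted p = 0.249). For Cfp, or properdin, which stabilizes the alternative convertase, it was 0.46 (adjusted p = 0.258), or 0.89 without control 4, where it was called. In the lectin pathway Masp1, Fcna and Colec11 had log2 fold changes of -0.10, 0.42 and -0.13, and in the terminal pathway C7 and C8g had -0.27 and -0.58. Without control 4 the sign turned for Cfd (0.10), C7 (0.14) and Colec11 (0.19), and Cfb stood at -0.08. Fcna stood at 0.76 without control 4 and at 0.24 without control 1, and was called in neither case. Of the membrane regulators, which limit complement on host cells, Cd55, Cd46, Cd59a, Csmd1 and Susd4 had 0.24, -0.10, -0.23, 0.11 and 0.40. The signs of Cd46 and Csmd1 were not stable, and without control 1 these genes stood at 0.40 and -0.02. Cd59b had -0.75 (adjusted p = 0.076) and Cr1l, with all Dnm2 +/K562E mice below all controls, -0.23 (adjusted p = 0.0231).

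The other 18 listed genes were below the filter, with at most 17 reads in any mouse. Among them were Masp2, Mbl2, Hc, which encodes C5, C6, C9 and C4bp. Mbl1, Fcnb, C8a, C8b and Cfi had 0 reads in all 8 libraries, which at 3 counts allows up to 0.0894 normalized CPM in the library with the highest such limit. Of the terminal components, Hc, C6, C8a, C8b and C9 were thus at or near 0, while C7 (16.3 ± 8.76 and 13.5 ± 4.51) and C8g (0.937 ± 0.167 and 0.627 ± 0.181) passed the filter. Liver markers were also near 0. Alb, the most abundant of the 7, stood at 0.940 ± 0.594 and 0.408 ± 0.279, the list summed to 1.14 ± 0.671 and 0.603 ± 0.400, and Ttr, Fga and Fgb had 0 reads in all mice.

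**Figure D3:**
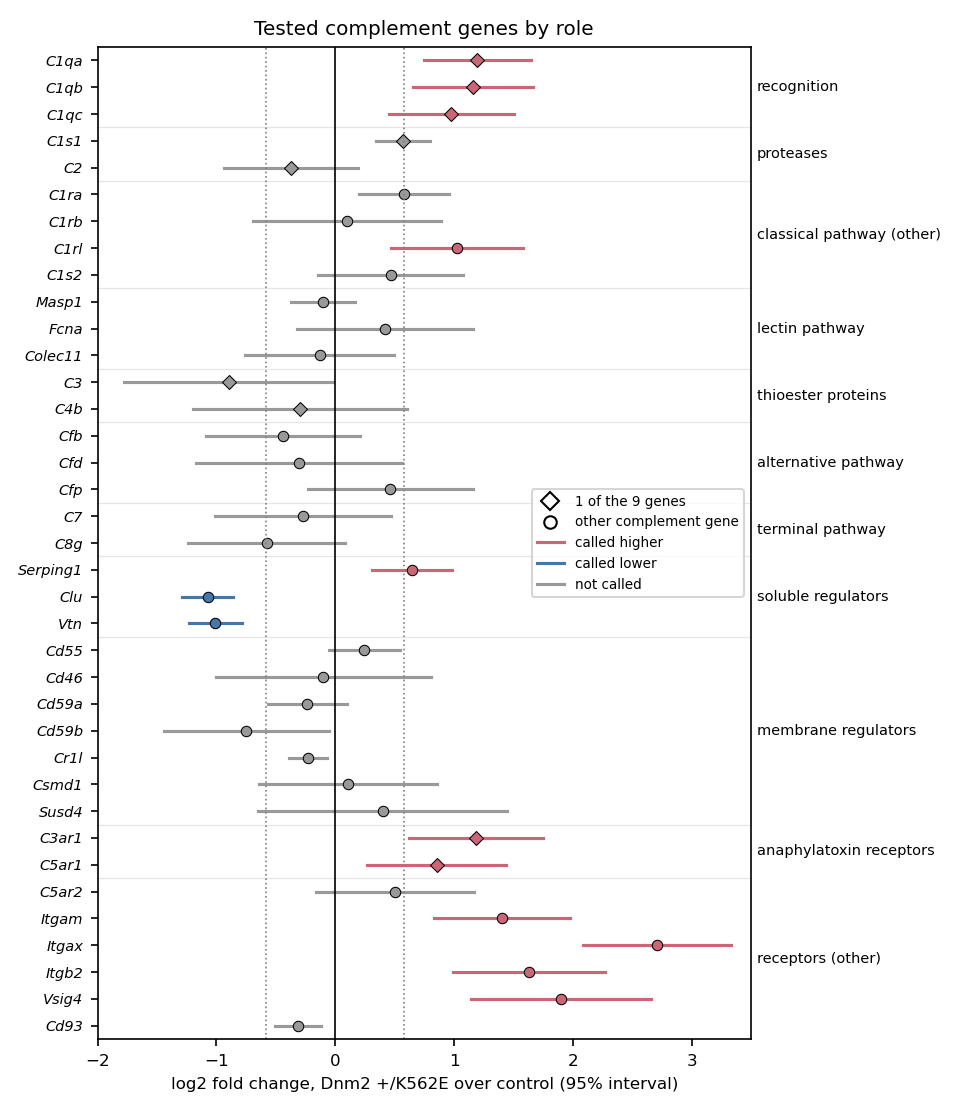
Log2 fold change (Dnm2 +/K562E over control) with its 95% interval for the 37 tested complement genes, grouped by role, with the 9 genes as diamonds, the others as circles and dotted lines at -0.58 and 0.58. Recognition chains, anaphylatoxin receptors and the C3 fragment receptors Itgam, Itgax, Itgb2 and Vsig4 lie on the right, and Clu and Vtn, at -1.07 and -1.01, are the genes called lower.

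Cell type markers were measured beside the complement genes, since in whole muscle fewer cells of a type and less RNA per cell cannot be told apart. Of 15 macrophage markers 12 were called higher, and Mertk, Cd163 and Aif1 were not called. Their summed level was 137.5, 142.6, 133.6 and 243.7 normalized CPM in controls 1 to 4 and 460.4, 366.1, 341.0 and 284.2 in Dnm2 +/K562E mice 1 to 4. Control 4 was the highest control and Dnm2 +/K562E mouse 4 the lowest of its group, as for all 3 C1q genes. The most abundant marker, Csf1r, the receptor on which macrophages depend, rose from 33.3 ± 11.0 to 75.3 ± 17.1 (log2 fold change 1.18, adjusted p = 0.00129). The ratio of C1qa to Csf1r was 0.709 to 0.749 in controls and 0.662 to 0.861 in Dnm2 +/K562E mice.

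The level of each of the 9 genes was then divided by the summed macrophage markers of the same mouse. On the log2 scale the mean ratio in Dnm2 +/K562E mice minus that in controls was 0.07 for C1qa, 0.02 for C1qb, -0.15 for C1qc, 0.02 for C3ar1 and -0.29 for C5ar1. For these 5 genes the ratios of the groups overlapped. For C1s1 (-0.58), C2 (-1.54), C3 (-1.93) and C4b (-1.27) the ratio in all Dnm2 +/K562E mice lay below that in all controls, as it did for 63.5% of all genes tested, since the macrophage sum itself was 2.21 times as high in Dnm2 +/K562E mice. A lower ratio is therefore not a lower level, and the level of C1s1 was higher in every Dnm2 +/K562E mouse than in every control. The part of macrophage number or activity in the higher levels was not tested.

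Other cell types moved too. Of 10 fibroblast markers 9 were called higher and Ly6a was not called. Their sum, led by Gsn (1363 ± 419 and 2279 ± 225), was 3842 ± 829 in controls and 7246 ± 684 in Dnm2 +/K562E mice, without overlap, and control 4 was the highest control here as for C1s1 and Serping1. Of 5 endothelial markers 1 (Kdr) was called lower, and all 5 were lower at an unadjusted p under 0.05. Of all 14001 genes, 3036 were lower at an adjusted p under 0.05 alone, and at least as many at an unadjusted one. The endothelial sum, led by Cdh5, was 877.1 ± 16.3 and 669.7 ± 38.5, without overlap. All 5 red cell genes were called lower, with a sum of 769.7 ± 167.3 and 394.9 ± 112.9, led by Hbb-bs. Of 7 slow fibre genes 3 (Tnnc1, Myl2 and Myl3) were called lower and 6 were lower at an unadjusted p under 0.05, with a sum of 20839 ± 1594 and 12896 ± 1256, led by Myh7, and of 5 general fibre genes Ckm was called lower and Des higher, with a sum of 53357 ± 3102 and 40842 ± 2374, led by Acta1. The part of these shifts in the complement values was not tested.

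Neutrophil and lymphocyte markers were low. The 7 neutrophil markers summed to 1.32 ± 0.610 in controls and 3.19 ± 1.91 in Dnm2 +/K562E mice, led by Csf3r, and Ly6g, a defining marker, had 0 reads in all mice. Of the neutrophil genes 2 passed the filter, with a median log2 fold change of 1.17. The quasi-likelihood test called neither, and the exact test of edgeR and DESeq2 each called 1 higher. The 8 lymphocyte markers summed to 1.37 ± 0.672 and 1.37 ± 0.635, led in Dnm2 +/K562E mice by Cd4. Cd4, the lymphocyte marker that passed the filter, stood at 0.300 ± 0.172 and 0.739 ± 0.415 (log2 fold change 1.33, adjusted p = 0.0861), and Cd79a, a B cell gene below the filter, at 0.452 ± 0.230 and 0.127 ± 0.0880. Of the 4 mast cell markers, led by Tpsb2, and the 5 Schwann cell markers, led by Pmp22, none was called by the quasi-likelihood test, the exact test or DESeq2. At an unadjusted p under 0.05 the mast cell genes numbered 0 and the Schwann cell genes 2, of which 1 was higher and 1 lower. Of all 14001 genes, 3103 were higher and 3036 lower at an adjusted p under 0.05 alone. The mast cell sum was 17.8 ± 13.1 and 15.7 ± 8.36, and the Schwann cell sum 267.7 ± 17.3 and 270.6 ± 23.2.

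C4b, C3 and Cfd were set beside fat cell genes after their values were seen. Adipoq, the adipocyte hormone adiponectin, was measured at 24.4, 43.1, 11.3 and 66.6 normalized CPM in controls 1 to 4 and at 32.6, 26.6, 18.0 and 26.5 in Dnm2 +/K562E mice. Control 4 was the highest mouse and control 3 the lowest, as for C4b and Cfd. The ratio of C4b to Adipoq was 1.09 to 1.55 in controls and 1.31 to 1.65 in Dnm2 +/K562E mice, that of Cfd to Adipoq 4.59 to 5.20 and 5.16 to 6.02, and that of C3 to Adipoq 1.83 to 3.77 and 1.22 to 1.97. C4b and Cfd thus kept a narrower ratio to Adipoq than C3 did. None of the 6 adipocyte markers was called by the quasi-likelihood test, the exact test or DESeq2, and 0 of the 6 passed an unadjusted p under 0.05. Their sum was 568.3 ± 106.9 and 482.6 ± 70.3, most of it Fabp4 (465.1 ± 80.7 and 401.6 ± 84.1), which endothelial cells make as well. The part of fat tissue in the values of C3 and C4b was not tested.

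**Figure D4:**
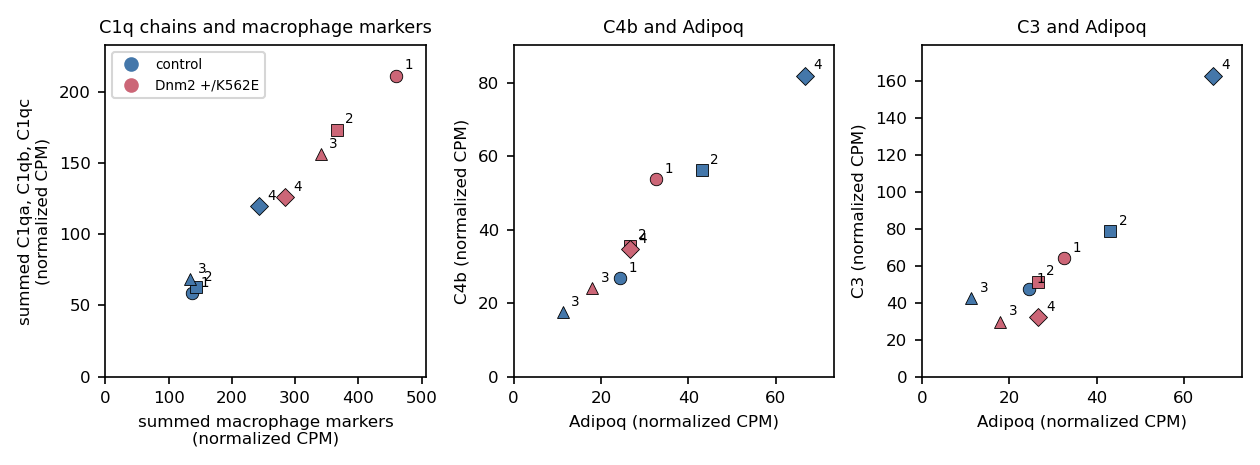
Normalized CPM per mouse for the summed C1q genes against summed macrophage markers (left), C4b against Adipoq (middle) and C3 against Adipoq (right), for 4 control (blue) and 4 Dnm2 +/K562E mice (red), with mouse numbers. C1q runs from 58.7 to 211.3 along the macrophage sum, and control 4 is at the upper end for C4b (81.9), C3 (163.0) and Adipoq (66.6).

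The genes whose pattern over the 8 mice was most like that of a complement gene were found by the root mean square difference of log2 CPM, each gene centred on its own mean, among 13992 tested genes. For the mean of the C1q chains the nearest were Mrc1 (0.0813), Csf1r (0.0920), Fcer1g (0.108), Tlr7 (0.114) and Ptpro (0.127), where the pattern itself had an SD of 0.668. The first 3 are on the macrophage marker list. For C3ar1 they were Ccr1 (0.0984), Tlr9 (0.120), Nfam1 (0.134), Arhgap45 (0.139) and Clec4a2 (0.153). For C5ar1 they were C1rl (0.138), Aspm (0.148), Tlr7 (0.156), Lyve1 (0.162) and Anln (0.164). The nearest genes of C4b were Cfd (0.171), Adipoq (0.172), Cidec (0.180), Plin1 (0.181) and Fasn (0.215), of which Adipoq, Cidec and Plin1 are on the adipocyte list. C3 had no gene as close, with Smpd3 (0.276), Cd209b (0.298), St14 (0.301), Cfb (0.306) and Fasn (0.316). With 8 mice in 2 groups, closeness partly restates the difference between genotypes or the level of control 4.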

How the data were processed

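Raw counts of reads per Ensembl gene and mouse were used as the authors deposited them, without normalization. Per the submitters' processing notes and the study's methods, reads were trimmed with Trimmomatic 0.33, aligned to GRCm38.p5 with STAR 2.5.1b and counted with featureCounts. Reads over several genes were counted for each. Multi-mapping reads were allowed at their primary alignment, but a minimum mapping quality was also set, which with the usual STAR scores removes them. Overlapping genes therefore share reads, and near copies such as C1s1, C4b and C1ra may lose reads in their shared stretches. The methods describe poly A-enriched RNA and the labels a stranded total RNA kit, and use of strand is not given in the sources used here.

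Of 22880 gene rows, 22647 matched GENCODE M21, which gave symbols, positions and exon lengths. In edgeR 4.0.16 (R 4.3.3), filterByExpr (minimum count 10, minimum total 15) kept 14001 genes for TMM normalization and the quasi-likelihood F-test, 4 mice against 4, with Benjamini-Hochberg adjustment over all of them. Standard errors are those implied by the F statistic, with a prior count of 2 for log2 CPM. The fit was tested on simulated counts in which 200 of 13951 genes changed, up or down, by a log2 fold change of 1.5. It recovered 91% of them, and 12 of 194 calls were wrong. Smaller changes, and changes in as many genes as in these data, were not simulated. Depth was 33407430 to 48832814 reads per mouse, and limits for a count of 0 cover counting error only. The labels name separate mice, and between any pair of 1 genotype counts differed beyond sampling noise (chi-square per degree of freedom at least 13.0).

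The 9 genes, the further complement genes, the marker lists and the motifs were chosen with earlier results of these data known. The genes named are Dnm2, the 9 genes, the further complement genes, the most abundant marker of each list and the 5 nearest patterns. Called markers are named in full for the endothelial, slow fibre and general fibre lists, and mainly counted for the other lists. Markers not called, Cdh5, Alb, Ly6g and other genes named in passing were added after their values were seen. The settings varied were the test (edgeR's exact test or DESeq2 1.42.0), the scaling (median-ratio or none beyond library size), the count filter, the fold threshold, replicate blocks, C1s1 and C1s2 added together, and each mouse left out. Promoters came from RefSeq (GRCm38.p6). A further listed gene is not reported here and enters none of the list counts.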

Additional observations from a re-analysis of the deposited data

Results flagged for a closer look

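In each group of 4 mice, a mouse was singled out when its gap to the nearest other mouse exceeded the 95% critical share of the group's range in Dixon's test. Of 102 groups examined 11 were singled out in this way, and chance alone gives about 1 in 20. Control 4 was high for C1qa (36.9 normalized CPM), C1s2 (1.18), Itgb2 (8.51), the summed macrophage markers (243.7) and the summed fibroblast markers (5084). The fold changes of the 9 genes without control 4 stand beside each gene. Control 3 was low for Dnm2 (59.2) and had the highest total count (48832814). Dnm2 +/K562E mouse 1 was high for C1s2 (1.68) and low for the summed general fibre genes (37312). Dnm2 +/K562E mouse 2 was low for the summed Schwann cell markers (235.9), and Dnm2 +/K562E mouse 4 was low for Fcna (1.84).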

How the results depend on the processing

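Of 153 values of the 9 genes under alternative settings, 139 kept their direction and their side of the thresholds. With library size alone, the median over all genes moved to 0.22 (log2), all genes called came to 2865 higher and 564 lower (16.4% lower, against 37.8% with TMM factors), and C1s1 was called at 0.78. With no fold threshold 3103 genes were called higher and 3036 lower, 6 of the 9 genes (with C1s1) and 7 of the further complement genes were higher, and 4 of the latter were lower. C1s1 was also called with at least 10 counts in every mouse (0.583) and with a replicate block by title numbers (0.585) or description numbers (0.585). C1ra was called under the same settings, at 0.78 with library size alone, 0.587 with at least 10 counts in every mouse, and 0.618 and 0.617 with the blocks. Masp1 (0.11), Colec11 (0.07) and Cd46 (0.12) turned positive with library size alone. Leaving out 1 mouse also turned the sign of C1rb (-0.30 without Dnm2 +/K562E mouse 3), Cd46 (up to 0.40, in 3 of 8 cases) and Csmd1 (down to -0.04, in 3 of 8 cases), none of them called. The blocks gave 1637 higher and 1036 lower, or 1739 and 1083, and 6 of the 9 genes higher. Mouse numbers did not pair the mice: same-numbered mice correlated at -0.11 on average by titles and -0.03 by descriptions, and 0 and 2 of 8 mice correlated best with their own number. Leaving out each mouse gave 4 to 6 of the 9 genes called higher and 0 to 1 lower, with log2 fold changes of 0.51 to 0.68 for C1s1, -1.13 to -0.35 for C3, -0.57 to 0.14 for C4b, which reversed without control 4, and 0.69 to 1.13 for C5ar1. The cause of these differences was not tested. C4a and C4b could not be added together, since no C4a row was analysed here. With 4 mice a group, C2, C3 and C4b keep wide intervals.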
